A study of Mus musculus with 18 samples.

Results

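RNA-seq of embryoid bodies was compared between 2 lines of mouse embryonic stem cells (mESCs) over the last interval of their differentiation, from day 6 to day 10. The K19R line carried FLAG-tagged EED in which lysine 19 is replaced by arginine, and the FLAG-WT line carried FLAG-tagged EED of unchanged sequence, both as knock-ins. Both were grown as mESCs with LIF and inhibitors of MEK and GSK3 (2i), and then as embryoid bodies in rotating suspension culture without LIF or 2i. The 8 libraries of K19R and FLAG-WT embryoid bodies at day 10 and day 6, 2 per group, were used out of 18 in the series, and each of 19092 genes that passed a filter on low counts was tested out of 54429 named. The quantity tested was the K19R step from day 6 to day 10 minus the FLAG-WT step (log2), so that a positive value means that a gene rose more, or fell less, in K19R. It was the same quantity as the line difference (K19R minus FLAG-WT) at day 10 minus the line difference at day 6. The labels do not say how many clones each line rests on or whether the 2 libraries of a group came from separate cultures. The p-values therefore measure only the spread between these libraries, which may be technical.

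EED belongs to Polycomb repressive complex 2 (PRC2). The complex keeps many regulators of development silent by methylating lysine 27 of histone H3 at their genes, and EED reads that mark and stimulates the methyltransferase EZH2. In embryoid bodies an outer layer of visceral endoderm forms around a core that leaves pluripotency and takes on epiblast, mesoderm and ectoderm fates, and mESCs without PRC2 activity are known to differentiate poorly. The study asks about EED as a substrate of the acetyltransferases CBP and P300, and arginine, unlike lysine, cannot be acetylated.

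Eed itself (chromosome 7, 89954654 to 89980983 on GRCm38) had 50 and 47 CPM in K19R and 46.9 and 42.8 in FLAG-WT at day 10, against 44.3 and 44.6 in K19R and 46.3 and 39.1 in FLAG-WT at day 6. All 8 libraries lay close together, and neither its step difference of 0.06 ± 0.12 (SE; adjusted p = 0.72) nor its line difference at either day passed the threshold of 0.05. The counts do not show the substitution or the tag. Total counts ran from 20452195 to 28169697 in the 8 libraries, and 21614 to 24664 genes had a count. The factors that scaled the libraries (trimmed mean of M-values, TMM) were 0.996 to 1.08 in K19R and 0.804 to 0.838 in FLAG-WT. Levels are CPM, the counts scaled to a common library size, after those factors, with 2 libraries in every group. Transcripts of the visceral endoderm serum proteins summed to 27400 and 28100 CPM in K19R and 46100 and 47300 in FLAG-WT at day 10, and to 8930 and 9500 in K19R and 33200 and 33300 in FLAG-WT at day 6. Those of the blood list summed to 22.7 to 26.6 CPM in all 8 libraries, and those of the cardiac list to 101 to 527 CPM. In whole embryoid bodies fewer cells of a type and less RNA per cell cannot be told apart, which holds for every value below.

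The day 6 to day 10 step differed between the lines in 7440 of the 19092 genes, or 39% (edgeR quasi-likelihood test, Benjamini-Hochberg adjusted p below 0.05). It was higher in K19R for 4650 genes (24.4%) and lower for 2790 (14.6%). The median of all genes was 0.12 on the log2 scale. A difference of at least 2-fold was called for 3099 genes (16.2%), 1889 higher and 1210 lower. The share called rose with the level, being 10.6% in genes with a mean below 0.829 CPM and 56.4% in those above 49.3 CPM. Each line had changed on its own: 11170 genes (58.5%) changed between the days in K19R, 6368 upward (33.4%) and 4802 downward (25.2%), and 8432 (44.2%) changed in FLAG-WT, 4051 upward (21.2%) and 4381 downward (22.9%).

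About as many genes differed between the lines after the step as before it, and differences in favour of K19R reached further. At day 10, 11142 genes (58.4%) differed between them, 6336 higher in K19R (33.2%) and 4806 lower (25.2%). At day 6, 11171 genes (58.5%) differed, 5429 higher in K19R (28.4%) and 5742 lower (30.1%). The median absolute difference over all genes was 0.58 on the log2 scale at day 10, against 0.60 at day 6. The 95th percentile of the signed difference was 3.68 at day 10, against 2.83 at day 6. The 5th percentile was -1.38 at day 10, against -1.44 at day 6. Both percentiles take in all genes tested, called or not, also those with few counts, whose fitted values depend on the prior count. The genes behind the totals differed in part. Of those that differed at day 6, 58.3% still differed in the same direction at day 10, 10.9% differed in the opposite direction and 30.7% no longer passed. In their place 3404 genes differed at day 10 alone.

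The 7440 genes were sorted by the line differences at the ends of the step. The sorting uses the same libraries as the test and adds no evidence of its own. The largest class, 1934 genes (26%), differed at day 6 and no longer at day 10, and is called closed. In another 1241 (16.7%) the difference kept its direction but became smaller, and these are called narrowed. Together 3175 genes (42.7%) caught up. In 1085 genes (14.6%) the difference widened, and in 1845 (24.8%) it opened, being called at day 10 and not at day 6, so that 2930 genes (39.4%) diverged further. The widened class held 688 genes without the first FLAG-WT library of day 6. A further 1223 (16.4%) crossed from one side of FLAG-WT to the other, and 112 (1.51%) fell in no class. The median absolute difference was 0.13 at day 10 against 0.75 at day 6 for the closed genes, and 1.47 against 0.66 for the widened ones.

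**Figure D1:**
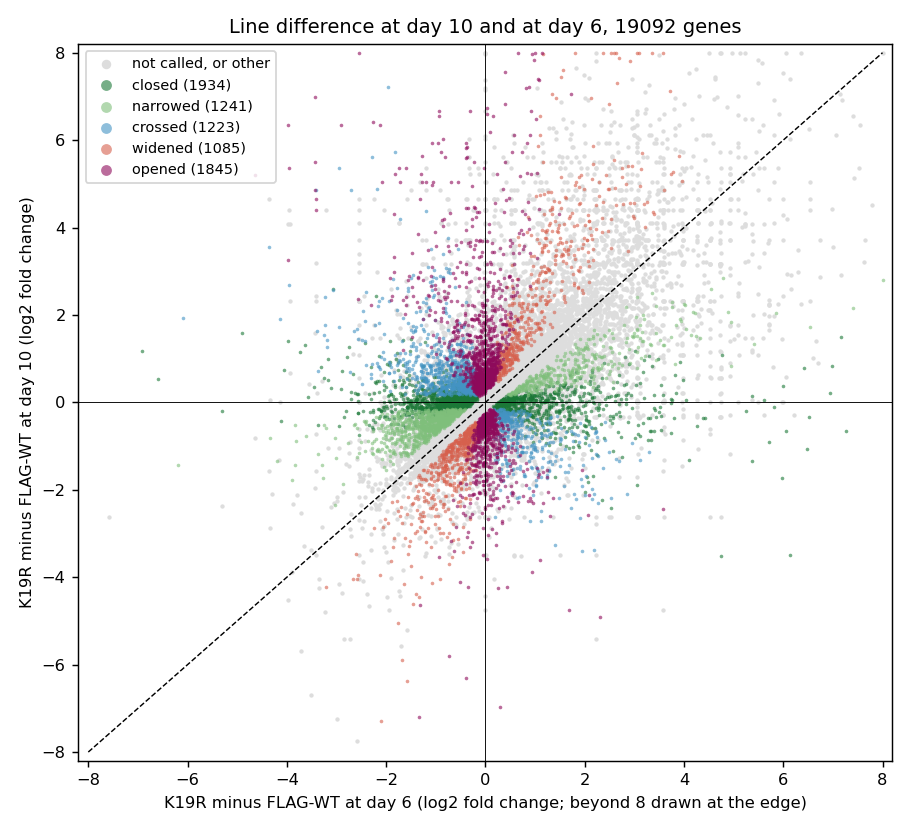
Line difference (K19R minus FLAG-WT, log2 fold change) at day 10 against that at day 6 for the 19092 genes tested, coloured by class, with values beyond 8 drawn at the edge. Closed genes (1934) lie along the horizontal axis, opened genes (1845) along the vertical axis, and the dashed line marks an unchanged difference.

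The line that moved was counted in each class. The K19R step was the only one called in 2762 of the 7440 genes (37.1%), the FLAG-WT step in 1462 (19.7%), both in the same direction in 1568 (21.1%) and both in opposite directions in 1471 (19.8%). In 177 genes (2.38%) neither step passed on its own. Closed genes had moved in K19R alone in 858 cases, against 374 in FLAG-WT alone. Among the widened genes the counts were 244 and 337, and among the crossed genes 579 had moved in opposite directions.

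**Figure D2:**
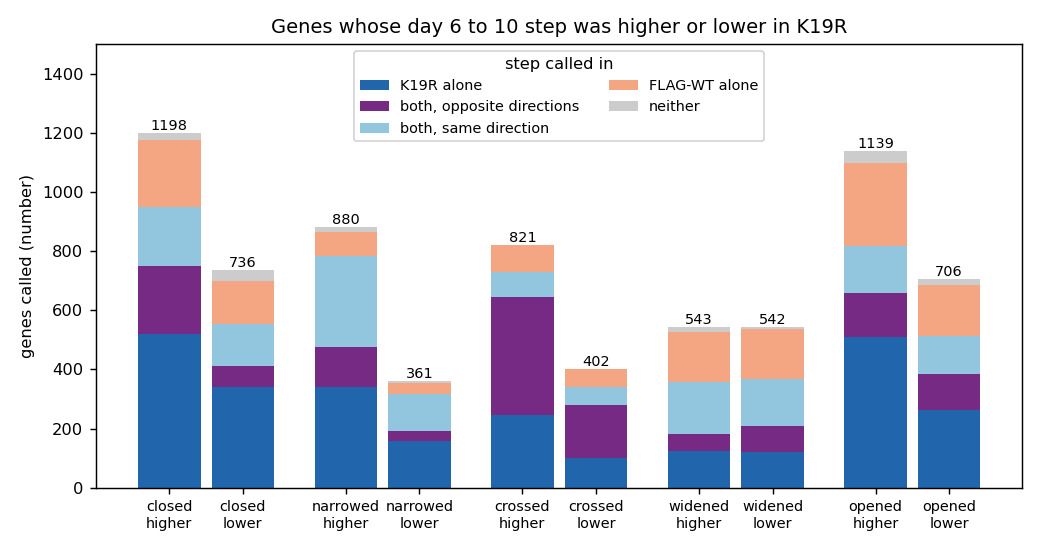
Number of genes called in each class, split by whether the step was higher or lower in K19R and coloured by the line or lines in which the step was called. Closed genes that were higher in their K19R step form the tallest bar (1198 genes), and opposite steps (579 genes) are the largest part of the crossed genes.

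Visceral endoderm genes caught up from below. Visceral endoderm is the absorptive, secretory epithelium that feeds the early embryo, taking up material by endocytosis and releasing the serum proteins later made by liver. Among 14 genes of uptake and lysosomal digestion the step was higher in K19R for 13 and lower for 0, beside 24.4% and 14.6% of all genes, and the median was 1.36. All 14 were below FLAG-WT at day 6 and 8 still were at day 10. FLAG-WT came down while K19R went up: 11 of the 14 fell in FLAG-WT and 11 rose in K19R. Ctsl (chromosome 13, 64359337 to 64370890), which encodes the lysosomal protease cathepsin L, had 3095 and 3300.1 CPM in K19R and 2802 and 2914 in FLAG-WT at day 10, against 1291 and 1219 in K19R and 3899.9 and 4071 in FLAG-WT at day 6. The K19R libraries lay far below FLAG-WT at day 6, the line difference at day 10 did not pass (adjusted p = 0.062), and the steps differed by 1.83 ± 0.10 (SE; adjusted p = 6.5e-13). Lgmn, the lysosomal protease legumain, had 1546 and 1975 CPM in K19R and 1957 and 2267 in FLAG-WT at day 10, against 992 and 1052 in K19R and 4434 and 4284 in FLAG-WT at day 6, a difference of 1.83 ± 0.12. Cubn, the endocytic receptor cubilin, closed by a fall in FLAG-WT, with 1442 and 1828 CPM in K19R and 1138 and 1141 in FLAG-WT at day 10, against 1653 and 1688 in K19R and 3842 and 4178 in FLAG-WT at day 6. Its step in K19R did not pass (-0.03, adjusted p = 0.92). Psap, the saposin precursor, was the only member that did not pass, at -0.21 (adjusted p = 0.23).

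Among 20 serum proteins of visceral endoderm the step was higher in K19R for 14 and lower for 0, with a median of 1.24. Here K19R rose (17 members) while FLAG-WT was divided (9 up, 2 down). The gap narrowed for 11 members, and 13 were still below FLAG-WT at day 10, against 15 at day 6. Apoa2, a high-density lipoprotein component, had 423 and 422 CPM in K19R and 749 and 745 in FLAG-WT at day 10, against 42 and 29.9 in K19R and 296 and 289 in FLAG-WT at day 6, so that it rose in both lines and the K19R deficit shrank to -0.82 at day 10, against -3.03 at day 6. Ttr, which carries thyroid hormone and retinol, rose in K19R alone and crossed, with 1839 and 2002 CPM in K19R and 1162 and 1026 in FLAG-WT at day 10, against 295 and 236 in K19R and 1141 and 1208 in FLAG-WT at day 6. Apob, the structural protein of lipoproteins that carry fat, rose in K19R and fell in FLAG-WT, with 2901 and 3671 CPM in K19R and 2454 and 2188 in FLAG-WT at day 10, against 1467 and 1447 in K19R and 4513 and 4664 in FLAG-WT at day 6. Afp, alpha-fetoprotein, rose in both lines and its step difference of 0.28 did not pass (adjusted p = 0.77). DESeq2, used as a second tool, called 7 of the 20 and no longer Ttr (adjusted p = 0.16) or Apoa2 (0.16), with nearly the same sizes. It called 10 of the 14 uptake genes and not Cubn (0.12). The main and the DESeq2 fit both also took in the libraries of day 0. There the 2 FLAG-WT libraries stood far apart, with 1.775 and 54.99 CPM for Afp and 0.1238 and 2.056 for Apoa2. The part of that spread in the adjusted p-values of these lists was not tested. The 8 libraries alone gave 13 in both lists. The summed level of the serum protein list, given above, is the total of these same genes. At day 10 Afp alone gave 11200 and 9426 CPM of it in K19R and 21770 and 22780 in FLAG-WT. The part of the number of visceral endoderm cells was not tested.

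The regulators of endoderm moved the same way, with 11 of 12 higher, 0 lower and a median of 1.16. Gata6, a zinc finger factor that starts the endoderm programme, had 93.6 and 87.2 CPM in K19R and 107 and 102 in FLAG-WT at day 10, against 32.8 and 32.1 in K19R and 109 and 109 in FLAG-WT at day 6. It rose in K19R, the step in FLAG-WT did not pass, and the steps differed by 1.54 ± 0.11 (SE; adjusted p = 1.9e-11). Hnf4a, the nuclear receptor behind many serum protein genes, went past it, with 379 and 394 CPM in K19R and 244 and 184 in FLAG-WT at day 10, against 133 and 124 in K19R and 272 and 261 in FLAG-WT at day 6. Sox7 and Hhex, factors of early extraembryonic and anterior endoderm, opened instead: their line differences at day 10 were 1.91 and 1.93, and those at day 6 did not pass. Cebpa, at -0.51, did not pass (adjusted p = 0.28). The parietal endoderm and basement membrane list was split, 4 higher and 2 lower of 12. Col4a1, a type IV collagen, narrowed with 5685 and 5274 CPM in K19R and 8486 and 10631 in FLAG-WT at day 10, against 2645 and 2709.9 in K19R and 7365 and 7682 in FLAG-WT at day 6. Hspg2, the heparan sulphate proteoglycan perlecan, opened downward with 466 and 369 CPM in K19R and 952 and 1284 in FLAG-WT at day 10, against 663 and 703 in K19R and 692 and 728 in FLAG-WT at day 6.

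Promoters of 2 genes for liver-type secreted proteins are shown because hepatic and visceral endoderm promoters often carry sites for HNF1, whose half-site was searched as GTTAAT on both strands. The window runs from 250 bases before the start site to 50 after it, in RefSeq on GRCm38.p6, and capitals mark the match. Fgb, a fibrinogen chain (chr3:83049814-83050113, minus strand), narrowed from below, with 280.1 and 263 CPM in K19R and 622 and 593 in FLAG-WT at day 10, against 77.5 and 68 in K19R and 343 and 361 in FLAG-WT at day 6. Lect2, a protein secreted by liver that is not in the serum protein list (chr13:56548489-56548788, minus strand), opened upward, with 5.66 and 6.74 CPM in K19R and 0.313 and 0 in FLAG-WT at day 10, against 2.93 and 2.46 in K19R and 1.46 and 1.58 in FLAG-WT at day 6.

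Fgb: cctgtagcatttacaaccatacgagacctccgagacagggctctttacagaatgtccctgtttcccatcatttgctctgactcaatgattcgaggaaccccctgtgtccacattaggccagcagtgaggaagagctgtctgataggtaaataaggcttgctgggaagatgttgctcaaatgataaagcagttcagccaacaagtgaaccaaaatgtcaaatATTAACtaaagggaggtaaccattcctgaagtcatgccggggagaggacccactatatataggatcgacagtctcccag

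Lect2: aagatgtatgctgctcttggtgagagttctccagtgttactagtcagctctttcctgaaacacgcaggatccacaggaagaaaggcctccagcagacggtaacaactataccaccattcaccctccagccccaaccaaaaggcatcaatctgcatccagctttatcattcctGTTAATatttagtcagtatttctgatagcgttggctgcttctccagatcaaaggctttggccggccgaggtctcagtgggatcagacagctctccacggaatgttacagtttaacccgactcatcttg

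The half-site was present for 8 of the 18 serum protein genes with a promoter entry (44.4%), and for 752 of the 12910 tested genes that had one (5.82%). It was found in 4 of the 12 members whose step difference passed and in 4 of the 6 that did not. Only 67.6% of the tested genes had an entry, so the share over all genes describes those alone. Shares by class are void where fewer than 80.0% of the members had an entry, as in most classes, and are not given.

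The genes of the Hox clusters, which pattern the body axis and are standard PRC2 targets, started below FLAG-WT and rose in K19R. Of 30 tested, 13 were higher in their K19R step and 0 lower, with a median of 1.53, and of those 6 closed, 2 crossed and 5 opened. At day 6 none was above FLAG-WT and 15 were below, and at day 10, 9 were above and 2 below. In K19R 22 members rose, against 4 in FLAG-WT. All were at low levels, the whole list summing to 40.8 and 51.3 CPM in K19R and 43.0 and 45.0 in FLAG-WT at day 10, and to 14.3 and 16.2 in K19R and 37.1 and 37.8 in FLAG-WT at day 6. Hoxa7 had 2.43 and 2.5 CPM in K19R and 0.94 and 0.642 in FLAG-WT at day 10, against 0.441 and 0.387 in K19R and 1.25 and 0.934 in FLAG-WT at day 6, a step difference of 3.04 ± 0.48 (SE; adjusted p = 1.1e-05). Hoxa5 closed, with 1.2 and 0.806 CPM in K19R and 0.783 and 0.321 in FLAG-WT at day 10, against 0.361 and 0.141 in K19R and 0.73 and 1.23 in FLAG-WT at day 6. The count of 13 became 8 without the first FLAG-WT library of day 6 and 9 under either other scaling or DESeq2. Counting ignored strand, so reads of Hox genes and of the antisense transcripts in the clusters cannot be told apart.

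The subunits and partners of PRC2 moved in both directions. Of 13 tested, beside 24.4% higher and 14.6% lower of all genes, 5 were higher in their K19R step and 3 lower, with a median of 0.06 (-0.01 with DESeq2's size factors), and of the 8 called 6 caught up and 2 widened. The lower count was 1 without the first FLAG-WT library of day 10. Epop, an accessory subunit that links PRC2.1 to elongin, had 405 and 371 CPM in K19R and 391 and 433 in FLAG-WT at day 10, against 117 and 111 in K19R and 347 and 322 in FLAG-WT at day 6. Its line difference was -0.09 at day 10, which did not pass (adjusted p = 0.3), against -1.55 at day 6. Ezh2, the methyltransferase, closed as FLAG-WT fell, with 93 and 96.9 CPM in K19R and 88.1 and 91.1 in FLAG-WT at day 10, against 89.5 and 92.1 in K19R and 134 and 135 in FLAG-WT at day 6, and the steps differed by 0.65 ± 0.10 (SE; adjusted p = 5.3e-06). Rbbp7, a histone-binding subunit, closed from below at 0.86 ± 0.10, and its paralogue Rbbp4 closed from above at -0.49 ± 0.10. Ezh1, the second methyltransferase, narrowed at 0.42 ± 0.09. The accessory subunits Mtf2 (0.42), Aebp2 (-0.30) and Phf19 (-1.03) passed too, but Mtf2 and Aebp2 passed in 4 and Phf19 in 6 of the 8 fits that left out 1 library. Phf19 was lost without the first FLAG-WT library of either day, Mtf2 without the first FLAG-WT library of day 6 or the second library of any other group, and Aebp2 without the first library of either line at day 10 or the second library of either line at day 6. Besides Eed, Suz12 (0.12, adjusted p = 0.43), Jarid2 (-0.06, 0.68), Phf1 (-0.24, 0.35) and Lcor (-0.04, 0.89) did not pass. In the PRC1 list 7 of 21 were higher and 3 lower, close to the shares of all genes, or 5 and 6 with DESeq2's size factors. The higher count was 4 without the second K19R library of day 10 or the first FLAG-WT library of day 6, and the lower count was 1 without either of those, the second K19R library of day 6 or the second FLAG-WT library of day 6. Bmi1, a core component, had 18.9 and 18.4 CPM in K19R and 7.73 and 6.16 in FLAG-WT at day 10, against 6.66 and 6.23 in K19R and 9.27 and 6.54 in FLAG-WT at day 6, opening at 1.74 ± 0.20. Cbx8, a reader of the PRC2 mark, closed at 1.70 ± 0.20. The acetyltransferase gene Crebbp opened, with 42.4 and 42.1 CPM in K19R and 23.5 and 20.6 in FLAG-WT at day 10, against 23.3 and 23.9 in K19R and 21.5 and 23.3 in FLAG-WT at day 6.

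Genes also caught up from above, by coming down in K19R. Of 6 smooth muscle genes tested, 4 were lower in the K19R step and 1 higher, with a median of -0.95. Des, the intermediate filament desmin, had 8.82 and 10.6 CPM in K19R and 5.64 and 8.51 in FLAG-WT at day 10, against 46.2 and 55 in K19R and 9.15 and 7.88 in FLAG-WT at day 6. Both K19R libraries were far above FLAG-WT at day 6 and close to it at day 10, a step difference of -2.11 ± 0.22 (SE; adjusted p = 1.9e-08). Cnn1, the actin-binding protein calponin, narrowed with 1.44 and 2.21 CPM in K19R and 1.1 and 0.91 in FLAG-WT at day 10, against 25.4 and 34.7 in K19R and 4.59 and 4.38 in FLAG-WT at day 6. Acta2, smooth muscle actin, went the other way and widened, at 1.10 ± 0.27, as it fell more in FLAG-WT. Snph, syntaphilin, which docks mitochondria in axons, closed with 0.718 and 0.297 CPM in K19R and 0.522 and 1.07 in FLAG-WT at day 10, against 5.86 and 5.77 in K19R and 0.515 and 0.467 in FLAG-WT at day 6. Among the 4 groups it was high only in K19R at day 6. Sema3c, a secreted semaphorin that guides axons and neural crest cells, narrowed with 1.95 and 2.21 CPM in K19R and 0.522 and 0.482 in FLAG-WT at day 10, against 16.5 and 18.4 in K19R and 0.386 and 0.175 in FLAG-WT at day 6, a difference of -3.82 ± 0.58 (SE; adjusted p = 7.5e-06). The neuronal genes Gap43, of growing axons, and Map2, of dendrites, narrowed by -1.96 ± 0.41 and -1.80 ± 0.41, although the neuron list as a whole was mixed, 5 higher and 2 lower of 17, or 3 higher without the first FLAG-WT library of day 6. Col6a1, a type VI collagen chain, closed as K19R fell and FLAG-WT rose, with 4.43 and 4.28 CPM in K19R and 2.51 and 3.59 in FLAG-WT at day 10, against 8.47 and 7.99 in K19R and 0.644 and 0.35 in FLAG-WT at day 6.

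Cyp1b1, a cytochrome P450, had the largest lower step of the narrowed genes under the rule for named genes. It rose in both lines, further in FLAG-WT. FLAG-WT held only 2 counts at day 6, and the ratio of K19R to FLAG-WT there was 34.1 with an exact 95% binomial interval of 9.17 to 286. Its levels were 7.5 and 5.81 CPM in K19R and 4.07 and 3.43 in FLAG-WT at day 10, against 1.08 and 2.22 in K19R and 0.0429 and 0.0584 in FLAG-WT at day 6. Its fitted step difference of -4.11 rests on those 2 counts and depends on the prior count.

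Replication genes came down in K19R from a raised day 6 level. Of 21 tested, 9 were lower in the K19R step and 3 higher, with a median of -0.20. At day 6, 16 of them were above FLAG-WT, and at day 10, 11 were. Mcm3, a subunit of the replicative helicase, had 161 and 151 CPM in K19R and 127 and 132 in FLAG-WT at day 10, against 219 and 235 in K19R and 118 and 109 in FLAG-WT at day 6. Mcm6 and Mcm4 of the same helicase closed, at -0.64 ± 0.09 and -0.62 ± 0.09. Cell cycle genes opened downward: 10 of 20 were lower in the K19R step and 3 higher, and 8 of those called belonged to the opened class. Cdc20, an activator of the anaphase-promoting complex, had 205 and 191 CPM in K19R and 325 and 364 in FLAG-WT at day 10, against 318 and 357 in K19R and 320.1 and 308 in FLAG-WT at day 6. The K19R day 10 libraries were the lowest and the other groups overlapped. Top2a, which untangles DNA before division, crossed with 552 and 591 CPM in K19R and 749 and 748 in FLAG-WT at day 10, against 908 and 934 in K19R and 716 and 718 in FLAG-WT at day 6.

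Pluripotency genes diverged further, to the side of K19R. Of 23 tested, 20 were higher in the K19R step and 0 lower, with a median of 1.34, and 14 of the 20 widened. The median step of the list was 0.10 in K19R and -1.74 in FLAG-WT, and 7 members fell in K19R, against 17 in FLAG-WT. Sox2 (chromosome 3, 34650405 to 34652461), a core transcription factor of pluripotency, had 110.2 and 95.8 CPM in K19R and 2.09 and 2.57 in FLAG-WT at day 10, against 112 and 96.4 in K19R and 25.9 and 19.9 in FLAG-WT at day 6. The K19R step did not pass (-0.02, adjusted p = 0.89), FLAG-WT fell in both libraries, and the steps differed by 3.29 ± 0.19 (SE; adjusted p = 7.8e-13). Sox2 lies within the gene of a longer transcript on its own strand, whose reads cannot be fully separated. Esrrb, a nuclear receptor of the naive state, had 93.7 and 68.3 CPM in K19R and 3.19 and 2.94 in FLAG-WT at day 10, against 82.2 and 68.9 in K19R and 17.9 and 12.6 in FLAG-WT at day 6. Nr0b1, an orphan nuclear receptor of naive cells, rose in K19R, with 15.4 and 10.4 CPM in K19R and 0.313 and 0.642 in FLAG-WT at day 10, against 5.74 and 5.6 in K19R and 2.83 and 2.39 in FLAG-WT at day 6. Pou5f1, which encodes OCT4, widened at 1.65 ± 0.17 with 97.9 and 80.8 CPM in K19R and 6.74 and 7.76 in FLAG-WT at day 10, against 192 and 197 in K19R and 56.5 and 41.9 in FLAG-WT at day 6. Not every member was above FLAG-WT: Klf4, which narrowed from below, had 158 and 126 CPM in K19R and 201 and 199.8 in FLAG-WT at day 10, against 29.6 and 26.1 in K19R and 96.7 and 98.9 in FLAG-WT at day 6. Klf2, Dppa3 and Utf1 did not pass, at -0.15, 0.16 and 0.11. The whole list summed to 2120 and 2250 CPM in K19R and 1520 and 1600 in FLAG-WT at day 10, against 2150 to 2300 in K19R and 1890 to 2020 in FLAG-WT at day 6.

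Epiblast and primitive streak genes diverged in the same direction. Of 12 formative and primed epiblast genes, 7 were higher in the K19R step and 2 lower, and 6 widened. Otx2, which drives exit from the naive state, fell in both lines but further in FLAG-WT, with 26 and 23.7 CPM in K19R and 0.522 and 1.12 in FLAG-WT at day 10, against 73.9 and 78.4 in K19R and 13.9 and 10.9 in FLAG-WT at day 6. Fgf5, a marker of primed epiblast, had 7.02 and 6.06 CPM in K19R and 0.104 and 0.321 in FLAG-WT at day 10, against 5.86 and 5.18 in K19R and 1.72 and 1.17 in FLAG-WT at day 6. Of 16 primitive streak and early mesoderm genes tested, 9 were higher and 1 lower, and some of these calls were lost when 1 library was left out. The median was 2.17, or 1.99 with groups at 0 counts set to a floor of 3 counts per library. Fgf8, which cells need to leave the streak, had 5.15 and 5.85 CPM in K19R and 0 and 0.0535 in FLAG-WT at day 10, against 0.522 and 0.775 in K19R and 0.129 and 0.35 in FLAG-WT at day 6. The FLAG-WT value at day 10 rests on 1 count, and the ratio of K19R to FLAG-WT was 208 with an exact 95% interval of 37.0 to 8230. Wnt3, which induces the streak, fell in both lines, less in K19R, with 5.23 and 7.13 CPM in K19R and 0.47 and 0.642 in FLAG-WT at day 10, against 11.4 and 11.8 in K19R and 5.41 and 5.08 in FLAG-WT at day 6. Cfc1, a co-receptor for NODAL, had 7.86 and 7.04 CPM in K19R and 0.104 and 0.214 in FLAG-WT at day 10, against 1.44 and 1.34 in K19R and 0.558 and 0.701 in FLAG-WT at day 6. For Fgf8 and Cfc1 the K19R libraries of day 10 were the highest of the 8. Mixl1, a homeobox gene of the streak, had 3.03 and 2.71 CPM in K19R and 0.157 and 0.107 in FLAG-WT at day 10, against 0.682 and 0.775 in K19R and 0.386 and 0.175 in FLAG-WT at day 6, and its call was lost without the first FLAG-WT library of day 6.

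Several genes with the largest step differences had widened. Sfrp5 (chromosome 19, 42197971 to 42202252), a secreted WNT antagonist, had 40.4 and 49.4 CPM in K19R and 0.888 and 0.642 in FLAG-WT at day 10, against 11.4 and 13.8 in K19R and 6.48 and 5.49 in FLAG-WT at day 6. It rose in K19R and fell in FLAG-WT, the 4 groups did not overlap, and the steps differed by 4.80 ± 0.27 (SE; adjusted p = 3.9e-13). Of 25 WNT pathway genes, 10 were higher and 2 lower. Has2, the main hyaluronan synthase, had 23.3 and 26.2 CPM in K19R and 0.104 and 0.107 in FLAG-WT at day 10, against 10.5 and 11.7 in K19R and 1.85 and 0.993 in FLAG-WT at day 6, with 4 counts in all in FLAG-WT at day 10. Mmp9, which degrades basement membrane collagen, had 22.5 and 14.8 CPM in K19R and 0.313 and 0.214 in FLAG-WT at day 10, against 2.45 and 1.94 in K19R and 1.2 and 0.759 in FLAG-WT at day 6. Both rose in K19R and fell in FLAG-WT. Vim, the mesenchymal filament vimentin, had 191 and 184 CPM in K19R and 11.5 and 13.5 in FLAG-WT at day 10, against 45.9 and 51.3 in K19R and 27.9 and 26.6 in FLAG-WT at day 6, at 3.06 ± 0.12 (SE; adjusted p = 7.1e-16). Ifitm1, an interferon-induced membrane protein also used as a mark of early germ cells, had 35.5 and 32.2 CPM in K19R and 0.313 and 0.161 in FLAG-WT at day 10, against 71.4 and 71.6 in K19R and 5.45 and 5.43 in FLAG-WT at day 6. Of 18 FGF and ERK target genes, 10 were higher and 4 lower. Fgf10, a ligand for FGFR2 that directs branching, crossed with 11.6 and 13 CPM in K19R and 2.51 and 1.39 in FLAG-WT at day 10, against 5.18 and 6.44 in K19R and 9.32 and 8.47 in FLAG-WT at day 6.

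**Figure D3:**
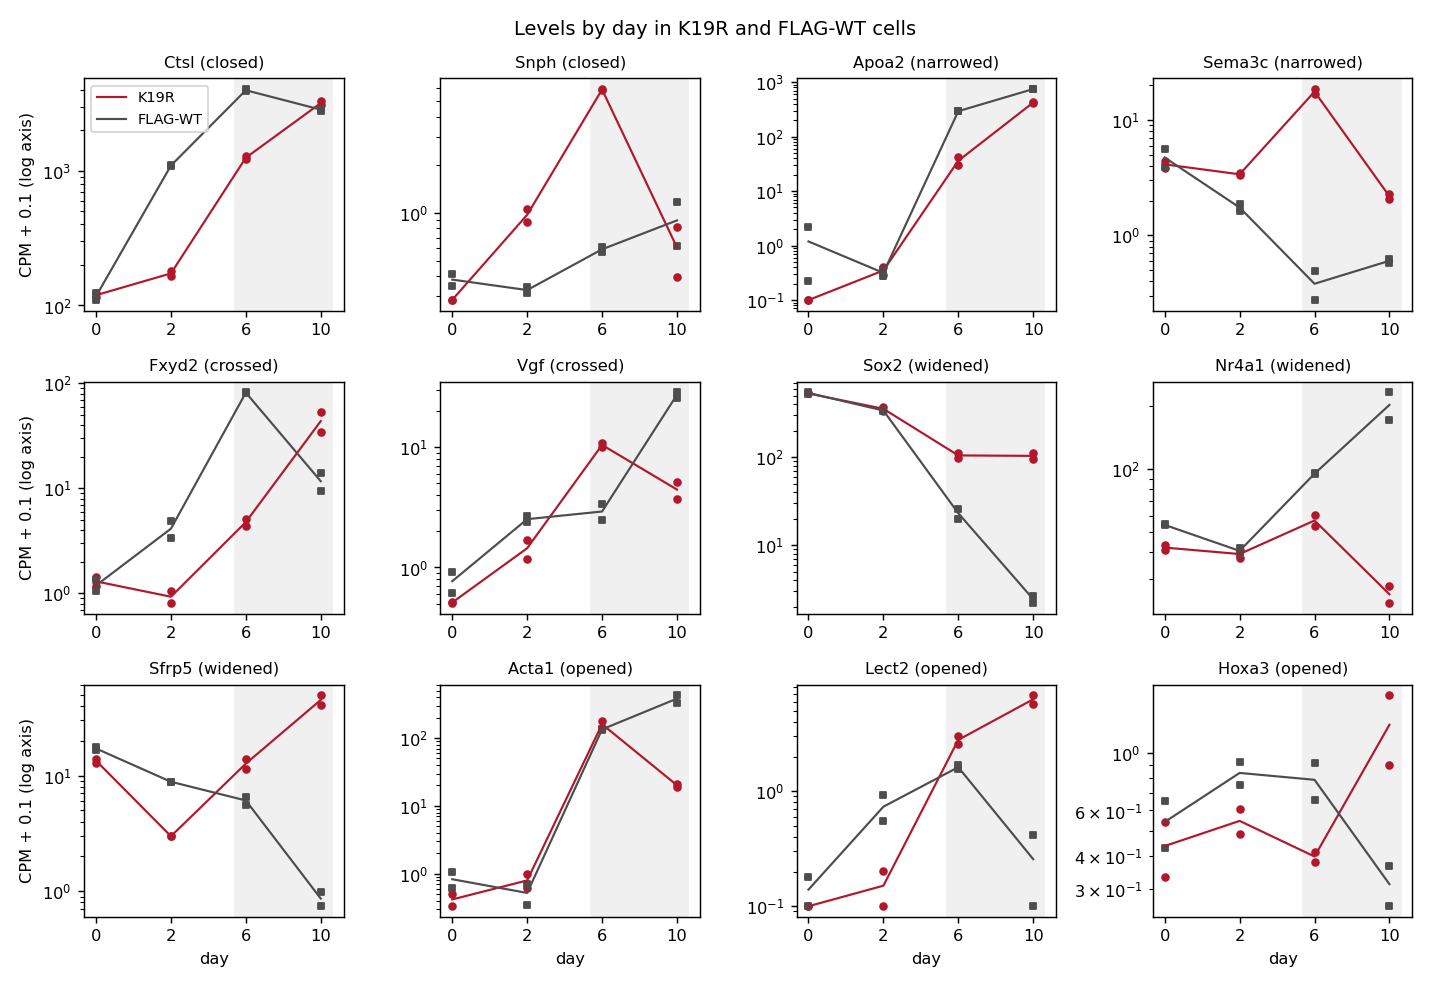
Levels (CPM plus 0.1, log axis) of 12 genes at days 0, 2, 6 and 10 in K19R (red circles) and FLAG-WT (grey squares), 1 point per library with lines through the means of 2 libraries and the day 6 to day 10 step shaded. Ctsl and Apoa2 approach FLAG-WT over the step, whereas Sox2, Sfrp5, Nr4a1 and Acta1 move away from it.

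Immediate early genes diverged downward. These genes answer growth factors, stretch and stress within minutes, and several encode the AP-1 factors of the FOS and JUN families. Of 17 tested, 13 were lower in the K19R step and 0 higher, beside 14.6% and 24.4% of all genes, with a median of -0.99. The lines moved apart from both sides: 12 members rose in FLAG-WT and 12 fell in K19R. At day 10, 15 members were below FLAG-WT, against 11 at day 6. Nr4a1 (chromosome 15, 101254269 to 101274795), an inducible nuclear receptor, had 27.6 and 22.9 CPM in K19R and 171 and 232 in FLAG-WT at day 10, against 53.1 and 60.3 in K19R and 94.1 and 95.4 in FLAG-WT at day 6. The K19R libraries of day 10 were the lowest and the FLAG-WT libraries of day 10 the highest, and the steps differed by -2.26 ± 0.15 (SE; adjusted p = 9.5e-12). Dusp1, a phosphatase that switches off MAP kinases, had 26 and 22.8 CPM in K19R and 234 and 308 in FLAG-WT at day 10, against 34.1 and 38.9 in K19R and 104 and 111 in FLAG-WT at day 6. It too fell in K19R and rose in FLAG-WT. Fosl1, an AP-1 subunit, rose in FLAG-WT alone, with 4.03 and 2.46 CPM in K19R and 20.4 and 21.1 in FLAG-WT at day 10, against 3.53 and 4.86 in K19R and 4.89 and 3.09 in FLAG-WT at day 6. Fos itself widened at -1.74 ± 0.13, with 18.9 and 16.6 CPM in K19R and 164 and 179.8 in FLAG-WT at day 10, against 24.8 and 27.1 in K19R and 69.9 and 81 in FLAG-WT at day 6. Egr3, a zinc finger factor, crossed with 0.519 and 0.806 CPM in K19R and 4.18 and 4.55 in FLAG-WT at day 10, against 1.65 and 1.58 in K19R and 0.902 and 0.817 in FLAG-WT at day 6. Junb (0.17), Jund (-0.25), Egr2 (-0.35) and Ier2 (0.03) did not pass.

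The heat shock list went the same way, 7 lower and 2 higher of 12. Hspb1, a small heat shock protein that caps actin, had 293 and 230.3 CPM in K19R and 1119.7 and 1262 in FLAG-WT at day 10, against 371 and 380.2 in K19R and 848 and 766 in FLAG-WT at day 6. Hspa1a and Hspa1b, at -2.70 and -1.99, are near-identical copies whose counts are uncertain. For Hspa1a the levels were 5.19 and 4.03 CPM in K19R and 41.9 and 107 in FLAG-WT at day 10, against 16.9 and 27 in K19R and 48.7 and 60.5 in FLAG-WT at day 6, so the FLAG-WT libraries of day 10 stood well apart from each other. Of 16 p53 pathway genes, 10 were lower and 3 higher, with a median of -0.63. Cdkn1a, the p21 inhibitor of cyclin-dependent kinases, rose in FLAG-WT alone, with 255 and 251 CPM in K19R and 437 and 414 in FLAG-WT at day 10, against 263 and 287 in K19R and 245 and 221 in FLAG-WT at day 6. Ccnd1, cyclin D1, fell in K19R and rose in FLAG-WT, with 22.3 and 19.8 CPM in K19R and 32.4 and 37.3 in FLAG-WT at day 10, against 35.8 and 32.4 in K19R and 14.3 and 12.6 in FLAG-WT at day 6.

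Acta1 (chromosome 8, 123891769 to 123894751), skeletal muscle actin, which responds to serum response factor (SRF), had 19.1 and 21.1 CPM in K19R and 428 and 334 in FLAG-WT at day 10, against 139 and 181 in K19R and 132 and 137 in FLAG-WT at day 6. The lines were close together at day 6 (line difference 0.26, adjusted p = 0.053) and far apart at day 10, where it was -4.25. The steps differed by -4.50 ± 0.17 (SE; adjusted p = 7.1e-16). Nppb, natriuretic peptide B, which responds to stretch, rose in FLAG-WT alone, with 2.27 and 3.01 CPM in K19R and 61.7 and 68.3 in FLAG-WT at day 10, against 2.69 and 3.45 in K19R and 9.27 and 7.65 in FLAG-WT at day 6. Myh7, the slow cardiac myosin heavy chain, widened at -2.96 ± 0.23, with 4.63 and 4.2 CPM in K19R and 47.3 and 66.8 in FLAG-WT at day 10, against 8.07 and 8.06 in K19R and 13.7 and 13 in FLAG-WT at day 6. Of 17 cardiac genes tested, a list without Acta1, 7 were lower and 3 higher, and of these 10, 5 diverged, 3 caught up and 2 crossed. Of 5 skeletal muscle genes 1 was higher and 0 lower. Hand1, a factor of heart and extraembryonic mesoderm, was among the higher ones, with 19 and 20.2 CPM in K19R and 1.04 and 1.02 in FLAG-WT at day 10, against 4.41 and 4.65 in K19R and 2.62 and 2.34 in FLAG-WT at day 6.

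Promoters of genes in these downward groups were searched on both strands for the sites through which SRF and the cAMP response act. These are the CArG box, 10 bases bound by SRF, and the cAMP response element, TGACGTCA. Only promoters with a match are shown. Windows and capitals are as above, in RefSeq on GRCm38.p6. Acta1 (chr8:123894726-123895025, minus strand) and Zfp36, an inducible RNA decay factor (chr7:28379179-28379478, minus strand), each hold 1 CArG box. Dusp1 (chr17:26508423-26508722, minus strand) holds 1 cAMP response element. Neither motif was found for Nr4a1, Fos, Nppb or Myh7, and Egr2, whose step difference did not pass, had a CArG box.

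Acta1: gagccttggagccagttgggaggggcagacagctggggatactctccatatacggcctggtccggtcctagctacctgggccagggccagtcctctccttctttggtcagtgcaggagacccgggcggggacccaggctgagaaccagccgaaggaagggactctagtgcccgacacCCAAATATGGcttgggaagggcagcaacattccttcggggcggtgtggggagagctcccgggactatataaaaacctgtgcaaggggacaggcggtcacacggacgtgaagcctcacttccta

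Zfp36: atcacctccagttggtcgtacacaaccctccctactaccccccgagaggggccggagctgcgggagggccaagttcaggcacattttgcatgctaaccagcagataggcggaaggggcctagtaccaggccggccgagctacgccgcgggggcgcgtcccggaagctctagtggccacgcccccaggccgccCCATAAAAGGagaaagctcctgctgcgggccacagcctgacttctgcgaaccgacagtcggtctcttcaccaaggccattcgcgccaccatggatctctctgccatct

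Dusp1: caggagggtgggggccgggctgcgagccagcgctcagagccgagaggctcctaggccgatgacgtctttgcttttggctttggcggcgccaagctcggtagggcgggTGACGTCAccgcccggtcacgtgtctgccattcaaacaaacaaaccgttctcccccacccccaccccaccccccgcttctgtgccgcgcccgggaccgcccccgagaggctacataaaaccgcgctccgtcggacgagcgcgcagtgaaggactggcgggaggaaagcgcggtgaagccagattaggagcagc

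A CArG box was found for 211 (1.63%) and a cAMP response element for 426 (3.3%) of the 12910 tested genes with an entry, and no match overlapped another of these motifs in the 5 windows shown. Those shares too describe only the genes with an entry. Of the 17 immediate early genes 13 had one (76.5%), below the same minimum of 80.0%, so no share is given for that list. Zfp36 had 46.9 and 46.9 CPM in K19R and 192 and 245 in FLAG-WT at day 10, against 56.2 and 61.3 in K19R and 139 and 161 in FLAG-WT at day 6, a step difference of -0.87 ± 0.13.

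**Figure D4:**
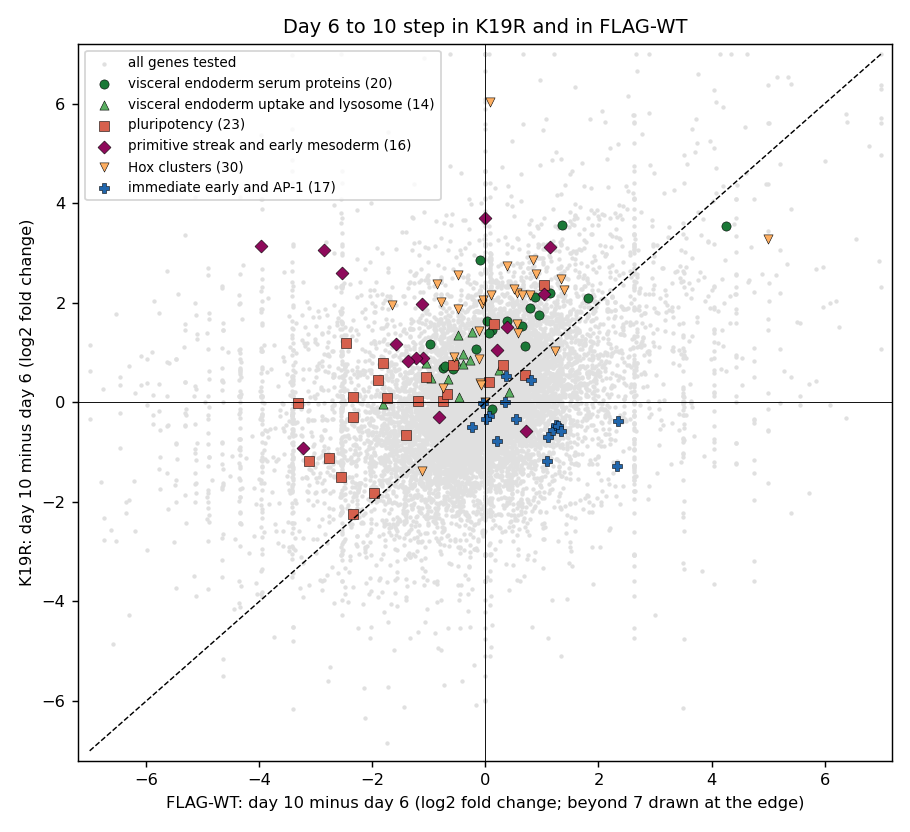
Day 6 to day 10 step in K19R against that in FLAG-WT (log2 fold change, values beyond 7 drawn at the edge) for all genes tested in grey and the members of 6 gene lists in colour. Points above the dashed line had the higher step in K19R. Most immediate early genes lie below it and to the right of 0, and most pluripotency genes above it and to the left of 0.

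Crossed genes included the largest step difference of all named genes. Fxyd2 (chromosome 9, 45399669 to 45410278), a regulatory subunit of the sodium pump in absorptive epithelia, stood at 6.04 ± 0.25 (SE; adjusted p = 3.7e-15). Its levels were 34.4 and 52.9 CPM in K19R and 9.24 and 14 in FLAG-WT at day 10, against 5.06 and 4.3 in K19R and 80.6 and 82.6 in FLAG-WT at day 6. The order of the lines was reversed between the days without overlap at day 6 or day 10. Enpp2, or autotaxin, which makes lysophosphatidic acid, crossed by a fall in FLAG-WT alone, with 8.7 and 14.4 CPM in K19R and 0.679 and 1.02 in FLAG-WT at day 10, against 8.87 and 11.5 in K19R and 17.4 and 16.8 in FLAG-WT at day 6. Prlr, the prolactin receptor, rose in K19R alone, with 11.6 and 15.6 CPM in K19R and 2.61 and 0.964 in FLAG-WT at day 10, against 1.28 and 0.704 in K19R and 2.4 and 3.09 in FLAG-WT at day 6. For these genes K19R was below FLAG-WT at day 6 and above it at day 10. Agmo, an enzyme of ether lipid breakdown, had 4.79 and 5.64 CPM in K19R and 1.88 and 1.71 in FLAG-WT at day 10, against 0.0803 and 0.176 in K19R and 1.16 and 1.46 in FLAG-WT at day 6. Entpd8, an ectonucleotidase of liver and gut, had 5.78 and 5.34 CPM in K19R and 1.83 and 1.55 in FLAG-WT at day 10, against 0.522 and 0.775 in K19R and 4.34 and 5.9 in FLAG-WT at day 6. Fabp1, the liver fatty acid binding protein, had 5.31 and 6.91 CPM in K19R and 1.15 and 1.28 in FLAG-WT at day 10, against 0.682 and 0.634 in K19R and 2.66 and 3.21 in FLAG-WT at day 6. Agmo, Entpd8 and Fabp1 followed the same order, lowest in K19R at day 6 and highest or near the highest in K19R at day 10.

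In the other direction Vgf, a neuropeptide precursor induced by growth factors, had 5.07 and 3.6 CPM in K19R and 25.6 and 28.5 in FLAG-WT at day 10, against 9.91 and 10.7 in K19R and 2.36 and 3.27 in FLAG-WT at day 6, a step difference of -4.53 ± 0.26 (SE; adjusted p = 9e-13). Thbs1, a matrix protein that activates latent TGF-beta, had 50.7 and 34.5 CPM in K19R and 152 and 168 in FLAG-WT at day 10, against 139 and 203 in K19R and 46.4 and 42.9 in FLAG-WT at day 6. The K19R libraries of day 10 spanned those of FLAG-WT at day 6, and the K19R libraries of day 6 spanned those of FLAG-WT at day 10. Scn3b, a sodium channel subunit, had 4.51 and 3.52 CPM in K19R and 17 and 17.7 in FLAG-WT at day 10, against 14.5 and 15.8 in K19R and 4.51 and 4.26 in FLAG-WT at day 6. Rin1, a RAS effector, had 8.06 and 6.02 CPM in K19R and 42.4 and 50.2 in FLAG-WT at day 10, against 23.9 and 24.4 in K19R and 11.5 and 10.6 in FLAG-WT at day 6. All of these were above FLAG-WT at day 6 and below it at day 10. Notch1, the receptor, had 20.9 and 21.1 CPM in K19R and 26.7 and 30.5 in FLAG-WT at day 10, against 97.8 and 113 in K19R and 20.6 and 18.8 in FLAG-WT at day 6. In its list 6 of 15 Notch pathway genes were lower and 1 higher. Slc16a3, which exports lactate, had 25.5 and 27.3 CPM in K19R and 40.3 and 42.7 in FLAG-WT at day 10, against 117 and 132 in K19R and 28.8 and 24.5 in FLAG-WT at day 6.

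Axon guidance genes were called often and in both directions, 10 higher and 8 lower of 24, with 7 crossing and 5 closing. Nrp1, Robo2 and Ntn1, given here, are from the higher side and do not stand for the 8 lower members. Nrp1, a semaphorin and VEGF receptor, had 16.4 and 19.5 CPM in K19R and 4.07 and 4.5 in FLAG-WT at day 10, against 2.09 and 2.08 in K19R and 5.32 and 5.72 in FLAG-WT at day 6. Robo2, a SLIT receptor, rose in K19R alone, with 9.17 and 9.25 CPM in K19R and 1.62 and 1.07 in FLAG-WT at day 10, against 0.642 and 0.634 in K19R and 1.5 and 1.17 in FLAG-WT at day 6. Both were highest in K19R at day 10. Ntn1, the guidance cue netrin 1, had 11.5 and 12.7 CPM in K19R and 8.82 and 9.15 in FLAG-WT at day 10, against 3.49 and 4.23 in K19R and 23.5 and 19.9 in FLAG-WT at day 6. Unc5c, a netrin receptor, had 286 counts in K19R and 1 in FLAG-WT at day 10, a ratio of 222 with an exact 95% interval of 39.6 to 8820, and its step difference was not called without the second FLAG-WT library of day 6. In the hedgehog list 4 of 12 were higher and 4 lower, and the genes given here, Ihh and Gli1, are from the higher side alone. Ihh, the ligand made by visceral endoderm, had 76.7 and 85.8 CPM in K19R and 27.8 and 18.3 in FLAG-WT at day 10, against 9.83 and 7.15 in K19R and 26.8 and 23.2 in FLAG-WT at day 6. Gli1, a target of the pathway, had 9.45 and 7.38 CPM in K19R and 0.313 and 0.161 in FLAG-WT at day 10, against 6.06 and 4.33 in K19R and 1.25 and 1.05 in FLAG-WT at day 6.

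All 8 genes of the 2-cell-like list that were tested were higher in the K19R step, with a median of 3.97, or 3.44 with groups at 0 counts set to the floor. These genes mark a rare state of mESCs that resembles the 2-cell embryo. At day 6 none was above FLAG-WT and 5 were below, and at day 10 all 8 were above. Zscan4c, which protects telomeres in that state, had 8.58 and 7.85 CPM in K19R and 0.679 and 0.749 in FLAG-WT at day 10, against 2.85 and 3.03 in K19R and 4.55 and 3.97 in FLAG-WT at day 6. Zscan4f had 9.02 and 6.66 CPM in K19R and 0.522 and 0.482 in FLAG-WT at day 10, against 2.77 and 1.83 in K19R and 3.01 and 2.98 in FLAG-WT at day 6. Both rose in K19R and fell in FLAG-WT. Copies of the Zscan4 family are near-identical, so counts of single members are uncertain. Zfp352 and Tdpoz4 had 0 counts in FLAG-WT at day 10 and 13 and 10 counts in K19R. Against the floor, K19R was at least 1.69-fold higher for Zfp352 and at least 1.30-fold higher for Tdpoz4. The count for the list was 6 in the fit of the 8 libraries alone.

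Metabolic lists moved by smaller amounts. Of 21 oxidative phosphorylation genes, 12 were higher and 0 lower in the K19R step, with a median of 0.30. Of the list, 19 fell in FLAG-WT, against 6 in K19R. Cox5b, a subunit of cytochrome c oxidase, closed with 144 and 130.2 CPM in K19R and 129 and 129 in FLAG-WT at day 10, against 114 and 112 in K19R and 174 and 173 in FLAG-WT at day 6. Of 17 glycolysis genes 9 were higher and 3 lower. Hk1, the first enzyme of the pathway, crossed downward with 33.7 and 31.6 CPM in K19R and 60.3 and 80.5 in FLAG-WT at day 10, against 76.9 and 80.3 in K19R and 40.1 and 36.5 in FLAG-WT at day 6. Slc2a3, a glucose transporter, crossed upward with 4489 and 5784 CPM in K19R and 4607 and 4199 in FLAG-WT at day 10, against 2770.2 and 2866 in K19R and 5223 and 5374 in FLAG-WT at day 6. For Slc2a3 the first K19R library of day 10 lay between the FLAG-WT libraries of that day. In the cholesterol synthesis list 4 of 19 were higher and 6 lower. Of 16 integrated stress response genes 7 were higher and 1 lower. Cth, which makes cysteine, had 12.3 and 11.2 CPM in K19R and 2.4 and 2.36 in FLAG-WT at day 10, against 8.75 and 7.22 in K19R and 10 and 11 in FLAG-WT at day 6.

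**Figure D5:**
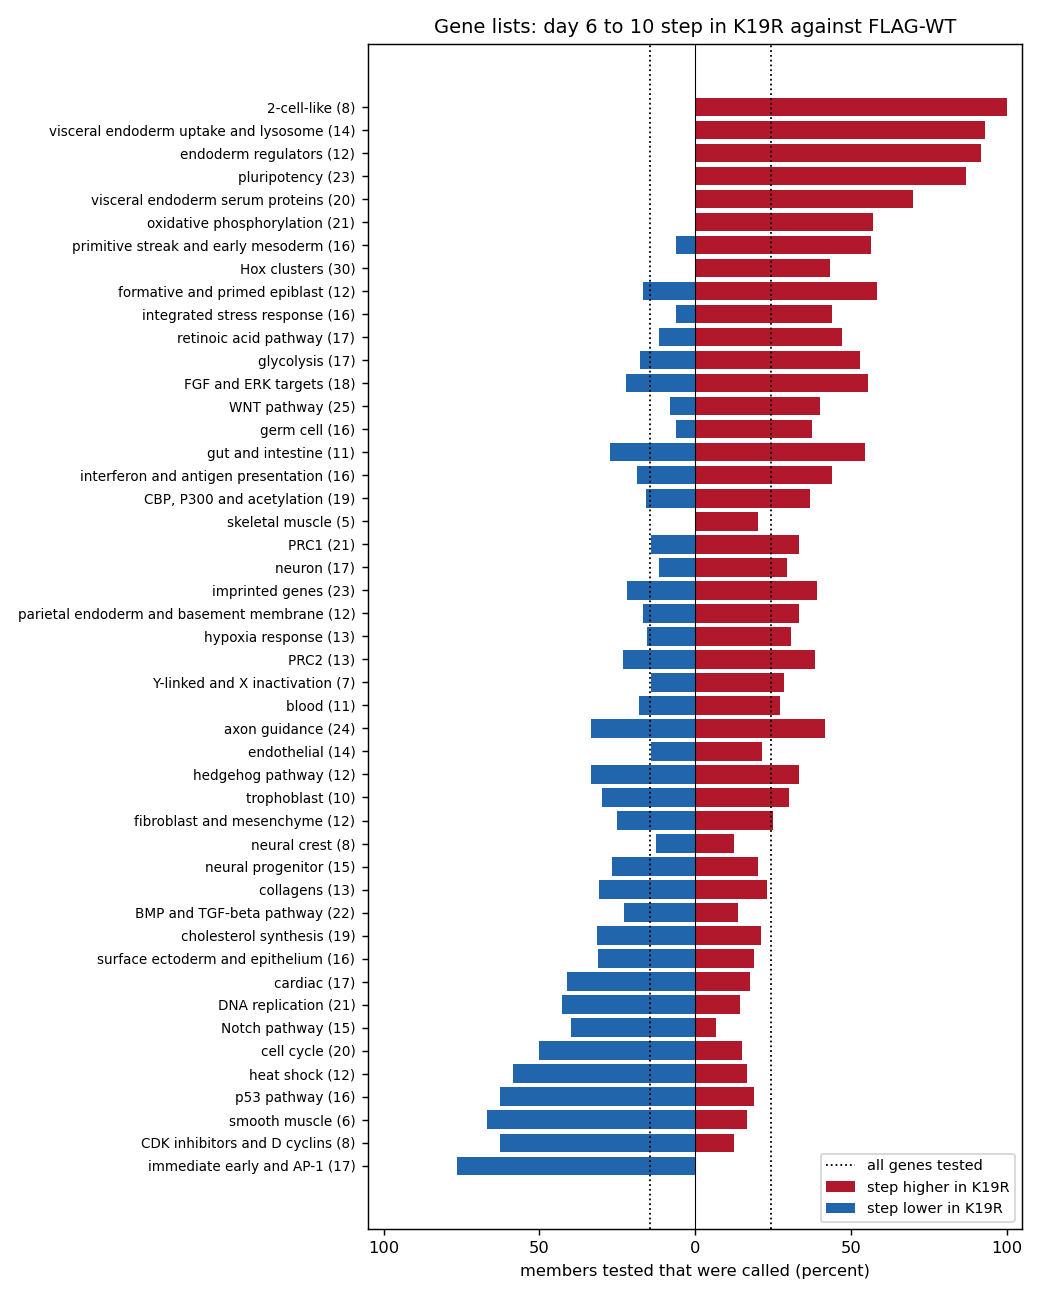
Percent of tested members called in each of 47 gene lists (number tested in brackets), with a higher K19R step to the right and a lower one to the left, and dotted lines at the shares of all genes (24.4% and 14.6%). The 2-cell-like, uptake, endoderm regulator and pluripotency lists reach furthest to the right, and the immediate early list furthest to the left.

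The remaining lists had members in both directions or few calls, beside 24.4% higher and 14.6% lower of all genes. Of 17 retinoic acid genes 8 were higher and 2 lower. Cyp26a1, which degrades retinoic acid, opened with 95.1 and 119.8 CPM in K19R and 29.7 and 24.1 in FLAG-WT at day 10, against 26.8 and 28.7 in K19R and 34.7 and 25.6 in FLAG-WT at day 6. Meis2, a homeobox target of the pathway, closed with 13.3 and 15.4 CPM in K19R and 14.7 and 15.6 in FLAG-WT at day 10, against 3.77 and 3.49 in K19R and 14.1 and 15.2 in FLAG-WT at day 6. Of 22 BMP and TGF-beta genes 3 were higher and 5 lower, of 23 imprinted genes 9 and 5, of 16 interferon and antigen presentation genes 7 and 3, of 13 hypoxia genes 4 and 2, and of 16 germ cell genes 6 and 1. The 6 became 3 with DESeq2's size factors and 3 without the first K19R library of day 10, the second K19R library of day 6 or the first FLAG-WT library of day 6. H19, an imprinted RNA and one of the most abundant transcripts, closed with 13190.0 and 14892 CPM in K19R and 13817 and 14380.0 in FLAG-WT at day 10, against 7729 and 8112 in K19R and 13752 and 13190.0 in FLAG-WT at day 6. Of 11 gut genes 6 were higher and 3 lower. Tff3, a mucosal trefoil peptide, narrowed with 44.7 and 36.3 CPM in K19R and 72.3 and 66.5 in FLAG-WT at day 10, against 0.441 and 0.387 in K19R and 5.15 and 5.14 in FLAG-WT at day 6. Of 10 trophoblast genes 3 were higher and 3 lower. Plac1, a placental protein, crossed with 11.4 and 16.5 CPM in K19R and 1.41 and 1.98 in FLAG-WT at day 10, against 9.43 and 9.37 in K19R and 20.1 and 18.4 in FLAG-WT at day 6. Krt7, an epithelial keratin, crossed the other way with 56.2 and 31.6 CPM in K19R and 134 and 117 in FLAG-WT at day 10, against 36.8 and 31.4 in K19R and 23.1 and 18.9 in FLAG-WT at day 6.

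Markers of other cell types were called in both directions, beside 24.4% higher and 14.6% lower of all genes. Of 14 endothelial genes 3 were higher and 2 lower, of 11 blood genes 3 and 2, and of 12 fibroblast and mesenchyme genes 3 and 3. Of 13 collagens 3 were higher and 4 lower, and of 15 neural progenitor genes 3 and 4. Of 8 neural crest genes 1 was higher and 1 lower, and of 16 surface ectoderm and epithelium genes 3 and 5. The share called either way ran from 25% (neural crest) to 53.8% (collagens) in these lists, against 39% of all genes. Flt1, a VEGF receptor, opened upward with 96.6 and 112 CPM in K19R and 41.9 and 36.3 in FLAG-WT at day 10, against 17.6 and 17 in K19R and 20.8 and 21 in FLAG-WT at day 6. Kdr, the main VEGF receptor, opened downward with 3.59 and 5.68 CPM in K19R and 11.9 and 16.2 in FLAG-WT at day 10, against 2.05 and 1.73 in K19R and 1.93 and 2.16 in FLAG-WT at day 6. Nes, a filament of neural progenitors, had 47.7 and 45.9 CPM in K19R and 175 and 151 in FLAG-WT at day 10, against 74.7 and 77.7 in K19R and 63.8 and 55.2 in FLAG-WT at day 6. Perp, a desmosomal protein, rose in FLAG-WT and fell in K19R, with 36.6 and 33.8 CPM in K19R and 209 and 225 in FLAG-WT at day 10, against 51.5 and 58.3 in K19R and 49.2 and 46.5 in FLAG-WT at day 6. Of 19 genes of the CBP, P300 and acetylation list 7 were higher and 3 lower, and of 8 genes for CDK inhibitors and D cyclins 1 and 5. The lines also differed at both days in Xist, with 1.76 and 1.61 CPM in K19R and 29.3 and 33.9 in FLAG-WT at day 10, against 2.97 and 3.2 in K19R and 28.4 and 29.2 in FLAG-WT at day 6, and in Uty, a Y-linked gene with an X-linked copy, with 18.3 and 24.9 CPM in K19R and 1.57 and 1.07 in FLAG-WT at day 10, against 17.3 and 20.9 in K19R and 2.15 and 1.93 in FLAG-WT at day 6. The lines thus differed in these genes before and after the step, with no overlap. Of the 7 genes tested in the Y-linked and X inactivation list, 5 were above FLAG-WT and 1 below at day 6. At day 10, 6 were above and 1 below, and the median line difference was 4.02, against 3.22 at day 6. In the step 2 were higher and 1 lower, and Uty passed in only 3 of the 8 fits that left out a library. Reads of Xist and its antisense Tsix cannot be told apart. Xist was lower and Uty higher in K19R at both days. Whether the lines carry different sex chromosomes was not tested. They differed in this list of Y-linked and X inactivation genes as well as in the substitution. The part of each in the results above cannot be told apart with these libraries and was not tested.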

How the data were processed

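Per the file headers, the authors deposited unnormalized counts: read pairs were assigned to gene names by featureCounts 1.6.3 over GENCODE vM19 exons on GRCm38. The recorded command has no option for strand or for reads that map to several places. STAR 2.7.0c, Trim Galore 0.6.0, FastQC 0.11.7 and bcl2fastq 2.17 are listed in the submitters' processing notes. From these counts, genes were kept with filterByExpr (10 counts per library, 15 in total). The 16 FLAG-EED libraries of days 0, 2, 6 and 10 entered 1 edgeR 4.0.16 fit in R 4.3.3 (TMM, glmQLFit, 1 coefficient per group, 8 residual degrees of freedom, biological coefficient of variation 0.062). The code was tested on simulated data. Each of 5 contrasts was tested two-sided with glmQLFTest, adjusted over the 19092 genes. An SE is the absolute log2 value over the square root of F. Floors (3 counts per library) and exact 95% binomial intervals cover counting error only.

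The comparison and the 47 gene lists (761 genes, 716 tested) were chosen with earlier results of these data known, so no list was tested as a set. Named genes were the 12 with the largest difference in each direction and the 4 largest of each class, if called in all 8 leave-one-out fits, with at least 5 CPM in a group and no predicted name (4420 genes). Up to 5 called members per list by size and any PRC2 member were added, and members that did not pass may be given with their values. Fgb, Psap, Afp, Cebpa, Pou5f1, Klf4, Fos and Zfp36 and the uncalled members are outside the size rule and were chosen after their values were seen. A few genes that the rule names are not reported here. The motifs were chosen in the same way. Promoter sequences are from RefSeq on GRCm38.p6. Alternatives were DESeq2's size factors (RLE), library totals, no filter, DESeq2 1.42.0, the 8 libraries alone, the replicate block, leaving out each library and a 2-fold minimum. Replicates of a group differed by more than sampling noise (chi-square per degree of freedom of 3.82 to 11.2). Chromosome 18 promoters were not used here.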

Additional observations from a re-analysis of the deposited data

Results flagged for a closer look

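The 23 genes below are listed because their day 6 to day 10 step differed between K19R and FLAG-WT in a test of the difference itself (edgeR quasi-likelihood test, adjusted p at most 0.00038) and in each fit that left out 1 library. They are among those with the largest step differences (log2) under the rule for named genes. Of the 12 with a higher K19R step, Fxyd2 was at 6.04, Fgf8 at 5.92, Mmp9 at 5.01, Has2 at 4.89, Sfrp5 at 4.80, Agmo at 4.79, Entpd8 at 4.66, Enpp2 at 4.50, Fabp1 at 4.46, Lect2 at 4.42, Prlr at 4.38 and Cfc1 at 4.35. Of the 11 with a lower K19R step, Vgf was at -4.53, Acta1 at -4.50, Snph at -4.17, Cyp1b1 at -4.11, Frmpd2 at -4.06, Pla2r1 at -4.04, Scn3b at -3.89, Wt1 at -3.88, Thbs1 at -3.84, Rin1 at -3.84 and Sema3c at -3.82. Fgf8, with 1 count in FLAG-WT at day 10, and Cyp1b1, with 2 counts in FLAG-WT at day 6, have values that depend on the prior count. Frmpd2 had 1.6 and 1.1 CPM in K19R and 0.418 and 0.642 in FLAG-WT at day 10, against 4.98 and 5.95 in K19R and 0.0859 and 0.175 in FLAG-WT at day 6. Wt1, a factor of kidney and heart lining whose gene has an antisense partner, had 1.12 and 0.721 CPM in K19R and 1.67 and 1.87 in FLAG-WT at day 10, against 7.18 and 7.75 in K19R and 1.07 and 0.817 in FLAG-WT at day 6. Pla2r1, a phospholipase receptor, had 0.957 and 0.806 CPM in K19R and 2.66 and 1.82 in FLAG-WT at day 10, against 5.34 and 5.56 in K19R and 0.945 and 0.701 in FLAG-WT at day 6.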

How the results depend on the processing

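The number of genes whose step differed, 7440, changed little with the processing. It was 7417 with DESeq2's size factors, 7390 with library totals alone, 7213 of 35107 without the filter, 6887 with DESeq2 and 6688 of 17161 in a fit of the 8 libraries alone. Requiring a 2-fold difference left 3099. Leaving out 1 library gave 6355 to 7282 calls. Each of these settings apart from the 2-fold minimum shared 81.9% to 93.9% of the 7440 calls, and 0 had the opposite sign. The share with a higher K19R step was 62.5%, against 53.5% to 66.6% under the alternatives, and the median of all genes was 0.05 with DESeq2's size factors, 0.07 with library totals and 0.12 with TMM. The widened class held 688 to 1180 genes when 1 library was left out, and the lowest value came without the first FLAG-WT library of day 6. The cause was not tested. Replicate numbers did not pair the libraries (correlations of deviations -0.0297 to 0.0481), and a fit with the replicate block called 7350 genes and shared 98.1%.

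Of 252 genes named by rule, 15 lost their call under DESeq2, 10 in the 8 libraries alone and 7 to 20 when 1 library was left out, and 0 changed direction. Counts by list under DESeq2 and in the 8 libraries alone were added after seeing the data. Counts of 3 or fewer members moved by up to 3 when 1 library was left out. Low depth limited genes with a mean below 0.829 CPM, where the median SE was 1.17, against 0.11 in those above 49.3 CPM.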

Other observations

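Gene families taken by name were counted in the same test, some with members already reported above, such as Ctsl and Zscan4c. In that test 24.4% of all genes were higher and 14.6% lower in the K19R step. Of 12 cathepsin genes 9 were higher in the K19R step and 0 lower, with a median of 1.24 on the log2 scale, and 8 and 0 under either other scaling. Of 319 solute carriers 122 were higher and 41 lower, with a median of 0.37. Of 388 zinc finger genes named Zfp 118 were higher and 32 lower, or 99 and 39 with DESeq2's size factors. Their median was 0.32, beside the all-gene median of 0.12. All 9 genes of the Zscan4 family that were tested were higher, with a median of 4.01, but their near-identical copies are not separate observations. Of 23 mitochondrially encoded genes 9 were higher and 1 lower, with a median of 0.69.

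In other families more members were lower than higher, some of them small and with shares not far from the 14.6% of all genes. Of 84 cytosolic ribosomal protein genes 6 were higher and 21 lower, with a median of -0.17, and 36 or 37 were lower under the other scalings. Of 48 histone cluster genes 1 was higher and 10 lower, with a median of -0.75. Of 26 integrin genes 3 were higher and 8 lower, of 23 MAP kinase phosphatase genes 2 and 8, and of 11 laminin chains 0 and 3. The 39 proteasome genes were even, 8 higher and 7 lower.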
